A study of Drosophila melanogaster with 3 samples.

Results

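The 10 genes described here, Ugalt, CG14100, CG13390, CG18549, CG1635, Pal1, CG18428, PNPase, CG11309 and Fkbp14, carried promoter peaks of very high signal for the Drosophila melanogaster protein CG13296 in embryos. They are 10 of the 18164 genes annotated on the 6 chromosome arms analysed. They were taken from a list of genes picked for the signal of their peaks, so their high ranks restate the choice and are given as a description, without a test. A peak was assigned to a gene when its summit, the position of highest enrichment, lay within 500 bp of a transcription start site (TSS) of that gene. Promoter peak below means a peak that met this rule for any gene.

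Chromatin immunoprecipitation sequencing (ChIP-seq) was performed in 1 group, a transgenic strain (CG13296-GFP) that stably carries CG13296 with green fluorescent protein at its C terminus. The labels do not give the promoter that drives the fusion protein or the state of the endogenous gene. Whole embryos of both sexes, pooled, were collected at 6 to 18 h, and the 3 biological replicates come from separate biosamples. All replicates share 1 control file, and no untagged embryos were analysed here. The labels disagree on what these libraries are. Their description field names them as input, but the assay name, the antibody field and the records deposited with the files make them the precipitated samples, and they are treated as such here. Whole embryos mix all cell types, so a peak at a promoter cannot be placed in any of them. The sources used here give no read numbers, and depth is therefore unknown.

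CG13296, named Prdm13 in the annotation, belongs to the PRDM family, whose members combine a PR domain related to methyltransferase domains with zinc fingers that can bind DNA. In the mouse, Prdm13 acts in the specification of neurons of the spinal cord and retina. Promoters are the stretches around a TSS where RNA polymerase is recruited, and in flies many lie head to head, so that a single short stretch serves a pair of genes that point away from each other.

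Sequences at 6 of the peaks are shown on the strand of the gene, from the RefSeq release 6 genome, which has the dm6 coordinates of the peak lists. The first pair of sequences is shown because each holds a perfect inverted repeat with an arm on either side of the summit. CG14100 is chr3L:19590531-19590690 on the minus strand and CG1635 is chr3R:31588447-31588637 on the plus strand, and capitals mark the arms.
CG14100: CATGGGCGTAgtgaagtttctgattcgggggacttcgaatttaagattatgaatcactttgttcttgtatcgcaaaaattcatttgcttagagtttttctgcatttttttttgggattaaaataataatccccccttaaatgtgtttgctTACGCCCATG
CG1635: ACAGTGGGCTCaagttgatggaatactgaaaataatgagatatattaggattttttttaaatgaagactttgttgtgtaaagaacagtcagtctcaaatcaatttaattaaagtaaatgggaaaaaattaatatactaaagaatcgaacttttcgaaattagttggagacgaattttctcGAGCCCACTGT
The next pair is shown because it shares letters with the arms of CG14100. Ugalt is chrX:2703853-2703977 on the minus strand, with capitals for a word of 11 letters that CG14100 also holds, and CG13390 is chr2L:8376791-8376980 on the minus strand, with capitals for 7 letters of that word.
Ugalt: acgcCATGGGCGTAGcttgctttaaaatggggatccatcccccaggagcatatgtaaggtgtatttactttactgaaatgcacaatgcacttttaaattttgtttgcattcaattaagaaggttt
CG13390: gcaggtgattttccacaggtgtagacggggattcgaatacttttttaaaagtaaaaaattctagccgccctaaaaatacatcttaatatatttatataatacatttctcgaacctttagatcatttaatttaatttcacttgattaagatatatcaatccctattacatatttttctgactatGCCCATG
The last pair is shown for base composition and for promoter elements. CG18428 is chr3R:24109094-24109294 on the plus strand, with capitals for the 50 bp on each side of the summit, and CG18549 is chr3R:12449064-12449264 on the plus strand, with capitals for 1 match each of the GAGA site, the TATA box and the Initiator, in that order.
CG18428: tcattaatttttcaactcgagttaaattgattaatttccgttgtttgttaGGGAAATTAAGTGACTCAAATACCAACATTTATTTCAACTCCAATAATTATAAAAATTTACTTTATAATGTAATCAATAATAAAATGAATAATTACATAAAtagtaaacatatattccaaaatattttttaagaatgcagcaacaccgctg
CG18549: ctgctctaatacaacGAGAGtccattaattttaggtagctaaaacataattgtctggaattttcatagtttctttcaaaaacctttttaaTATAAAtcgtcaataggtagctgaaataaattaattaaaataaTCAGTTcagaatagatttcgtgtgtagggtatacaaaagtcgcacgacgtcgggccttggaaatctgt

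All 10 genes had a peak in the set that passed the authors' irreproducible discovery rate (IDR) threshold, and each had 1 in every replicate's own list. Across the genome 23.3% of the 13945 protein-coding genes had an IDR summit within 500 bp of a TSS, a share from which nothing is read here because the genes were chosen for their peaks. The IDR set holds 5724 peaks, of which 2996 are promoter peaks. The signal, the authors' own measure of peak strength, had a median of 312 over the promoter peaks and stood at 9.31 to 18.4 times that median at the 10 genes. The genes held promoter ranks 1, 2, 5, 6, 7, 8, 10, 12, 13 and 15, so the list is not an unbroken run of the strongest promoter peaks. The 5 peaks in between lay at Gapdh2, a glycolytic enzyme gene, at mRpL41 together with lncRNA:CR44463, at mRpS10 together with Art3, at ph-p, a Polycomb group gene, and at CenG1A together with mRpS23. The genes mRpL41, mRpS10 and mRpS23 encode mitochondrial ribosomal proteins, so 3 of these 5 peaks lay at such a gene, each shared with another gene. The share of all promoter peaks at such genes was not counted here, so nothing is read from this. Fkbp14, the last gene of the list, had a signal of 2901 (IDR rank 23), and the peak just below it, at CG1888, had 2851 (IDR rank 24).

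**Figure D1:**
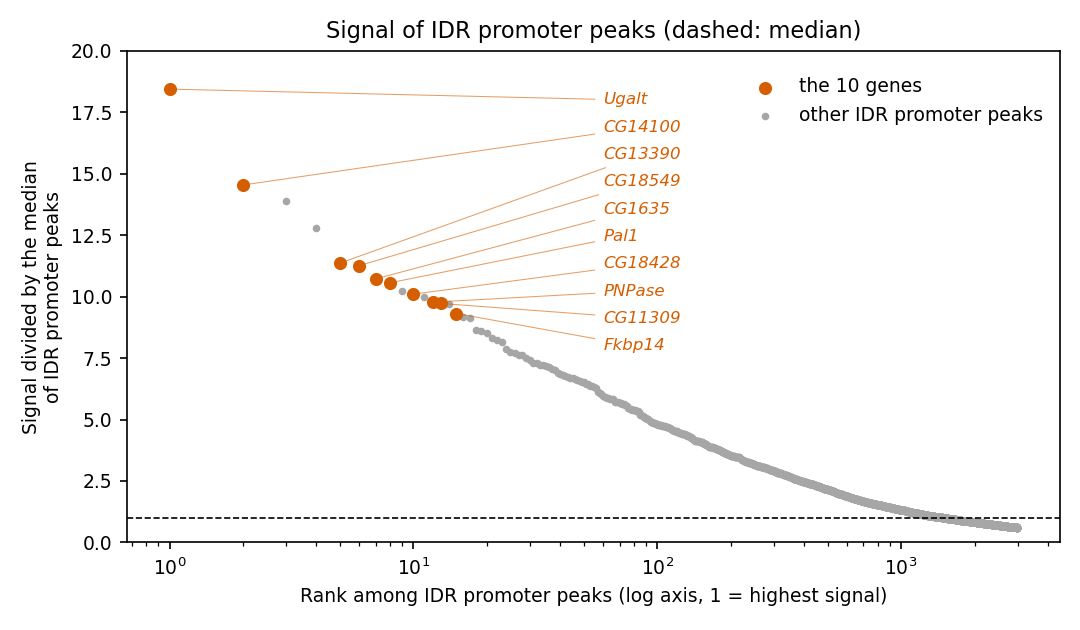
Signal of each of the 2996 IDR promoter peaks, divided by their median (vertical axis, a ratio), against its rank among them (horizontal axis, log scale). Orange points are the 10 genes, which stand at 9.31 to 18.4 times the median, and grey points are the other promoter peaks, 5 of which lie between Ugalt and Fkbp14.

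Ugalt (FBgn0024994) encodes the transporter that carries UDP-galactose into the Golgi, where it serves the galactosylation of proteins and lipids. Its peak (chrX:2703660-2704111, on dm6 like all coordinates here) had the highest signal of all promoter peaks, 5746, and ranked 2 in the IDR set, whose first peak had 6085. In replicates 1, 2 and 3 it ranked 1, 1 and 4. Divided by the median of the promoter peaks among the 5724 strongest peaks of the same replicate, its signal was 19.9, 17.7 and 15.4. It was therefore the strongest peak anywhere in the lists of replicates 1 and 2 and the fourth in that of replicate 3. The summits lay 24, 38 and 33 bp upstream of the TSS at position 2703852, a mean of -31.7 ± 7.10 bp (SD, n = 3), in intergenic sequence. The gene has another TSS, 132 bp downstream of the IDR summit.

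CG14100 (FBgn0036889), annotated as an uncharacterized protein like the other CG-numbered genes of the list, had the next promoter peak in signal, 4529, at chr3L:19590408-19590832. It ranked 4, 4 and 7 in replicates 1, 2 and 3, with 15.7, 13.9 and 12.1 times the replicate's median promoter peak. Ugalt was ahead of CG14100 in each of the 3 replicates. Its summits lay 96, 99 and 87 bp upstream of its single TSS.

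CG13390, CG18549 and CG1635 formed a group with nearly equal signal, 3540, 3510 and 3339, at IDR ranks 10, 11 and 12. CG13390 (FBgn0032031, chr2L:8376683-8377098) ranked 14, 10 and 11 in replicates 1, 2 and 3, with 11.1, 10.8 and 10.5 times the median promoter peak. CG18549 (FBgn0038053, chr3R:12448965-12449358) ranked 12, 11 and 12, with 11.2, 10.6 and 10.4 times that median. CG1635 (FBgn0039854, chr3R:31588317-31588757) ranked 16, 12 and 13, with 10.5, 10.4 and 9.88 times that median. CG13390 and CG18549 changed order between replicates, and CG1635 was below both in every replicate. Each of the 3 genes has a single TSS, with the IDR summit 83 bp upstream of it at CG13390, 132 bp at CG18549 and 133 bp at CG1635. The summit upstream of CG1635 also falls in an intron of the antisense RNA gene asRNA:CR45190.

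Pal1 (FBgn0283510) encodes a peptidylglycine amidating lyase, the enzyme of the second step in the C-terminal amidation of neuropeptides. Its peak (chr2R:9959678-9960142, signal 3290) ranked 22, 16 and 10 in replicates 1, 2 and 3, with 9.70, 9.67 and 10.8 times the median promoter peak. The summits lay in an intron of Pal1, 174, 167 and 168 bp upstream of the downstream TSS of the gene, while the upstream TSS lies 359 bp before the IDR summit.

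CG18428 (FBgn0039149, chr3R:24108919-24109412, signal 3145) had the widest range of ranks among the 10 genes, 29, 22 and 9 in replicates 1, 2 and 3. Its signal was 8.36, 9.14 and 11.2 times the median promoter peak, highest in replicate 3. Pal1 and CG18428 were the only genes of the list with their best rank in replicate 3. Its summits lay 145, 134 and 147 bp upstream of its single TSS.

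PNPase (FBgn0039846) encodes polynucleotide phosphorylase, an exoribonuclease that degrades RNA from the 3' end and works in mitochondria. Its peak (chr3R:31404464-31404856, signal 3045) ranked 18, 20 and 26, with 10.5, 9.23 and 8.28 times the median promoter peak in replicates 1, 2 and 3. The gene has 3 TSSs, and the strong peak did not lie at the most upstream one. The IDR summit was in 5' UTR, 79 bp downstream of the middle TSS and 93 bp upstream of the last. At the most upstream TSS a separate IDR peak, with the summit at -12 bp, had rank 4977, so the pair of peaks at PNPase lies near the top and near the bottom of the same list.

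CG11309 (FBgn0037070, chr3L:21304343-21304793, signal 3028) ranked 24, 13 and 21, with 9.32, 10.03 and 8.78 times the median promoter peak in replicates 1, 2 and 3. Its IDR summit lay between TSSs, 81 bp downstream of the first and 110 bp upstream of the next, in an intron. Fkbp14 (FBgn0010470) encodes an FK506-binding peptidyl-prolyl isomerase of the endoplasmic reticulum, which helps proteins to fold. Its peak (chr2R:21497127-21497568) ranked 20, 26 and 30, with 10.2, 8.08 and 8.12 times the median. The summit lay in an intron of the gene, 131 bp upstream of 1 of its 4 TSSs and 588 bp downstream of the first. A weaker IDR peak, rank 3179, lay 497 bp downstream of another Fkbp14 TSS.

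Every one of the 10 genes stayed within the first 30 ranks of each replicate's list of 30000 peaks. In the whole set of promoter peaks 14 did so, the 10 genes and 4 others, at Gapdh2, mRpL41 with lncRNA:CR44463, mRpS10 with Art3, and ph-p. The peak shared by CenG1A and mRpS23, at IDR rank 20, ranked 15, 14 and 49 in replicates 1, 2 and 3, and CG1888 ranked 19, 23 and 51. The next promoter peaks below CG1888 were at px, which ranked 26, 15 and 38, and at ph-p again, which ranked 33, 33 and 15. The IDR set was picked with these same replicates, so the ranks are not independent of it.

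**Figure D2:**
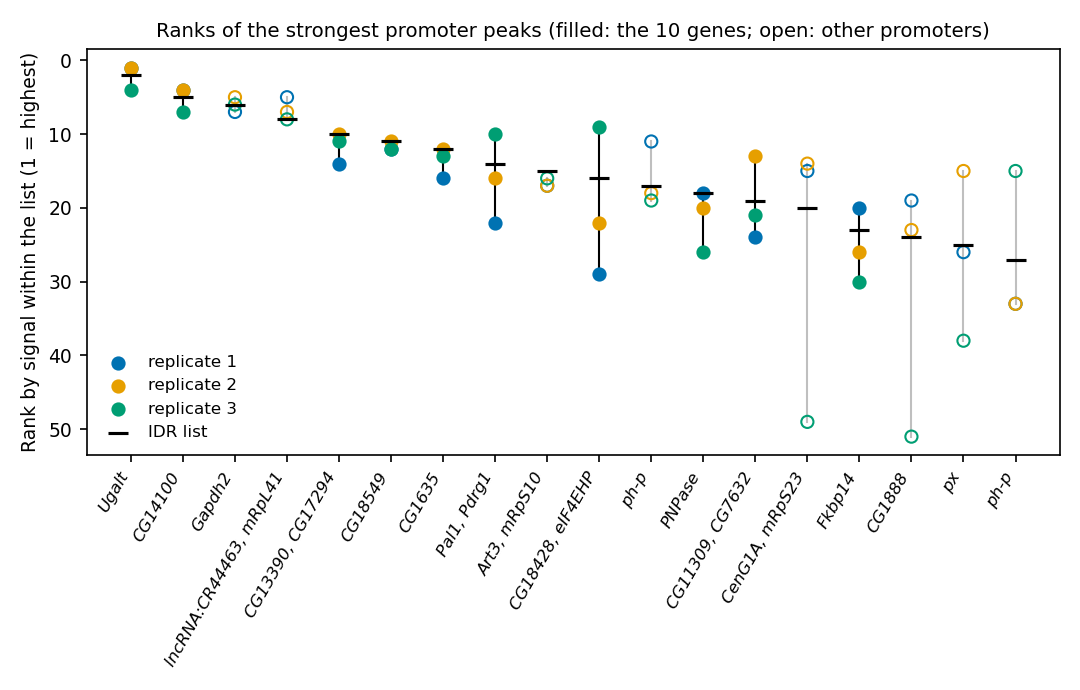
Rank by signal within each list (vertical axis, 1 at the top) for the promoter peaks from Ugalt down to the 3 peaks below Fkbp14, in the order of the IDR set. Filled points are the 10 genes, all within rank 30 in each of the 3 replicates, open points are other promoters, and black bars give the IDR rank.

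The summits of the 10 genes fell close together in the 3 replicates, within 10 bp or less at 5 of the genes. At CG13390 they lay within 3 bp of each other, at -84, -81 and -83 bp, with an SD of 1.53 bp. At CG18549, CG1635, Pal1 and Fkbp14 they spanned 7 bp. At the remaining genes the span was 12 to 18 bp, smallest at CG14100 and largest at PNPase. The median SD over replicates was 5.02 bp for the 10 genes. It was 11.8 bp for the 90 other promoter peaks within the first 100 in signal, and 26.8 bp for the 2818 of the 2986 other promoter peaks that had a summit within 200 bp in all 3 replicates. The remaining 168 have no SD and are left out of these values. The highest SD among the 10 genes was 9 bp. Of the 90 other peaks 34 (37.8%) had an SD that low, as did 386 (13.7%) of the 2818 others. Promoter peaks within the first 100 in signal thus had closer summits than the rest. The 5 peaks ranked among the 10 genes had SDs of 8.74 bp (Gapdh2), 6 bp (mRpL41), 3.46 bp (mRpS10), 16.2 bp (ph-p) and 3.055 bp (CenG1A with mRpS23). Close summits were therefore not particular to the 10 genes, and the part of signal in them was not tested.

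**Figure D3:**
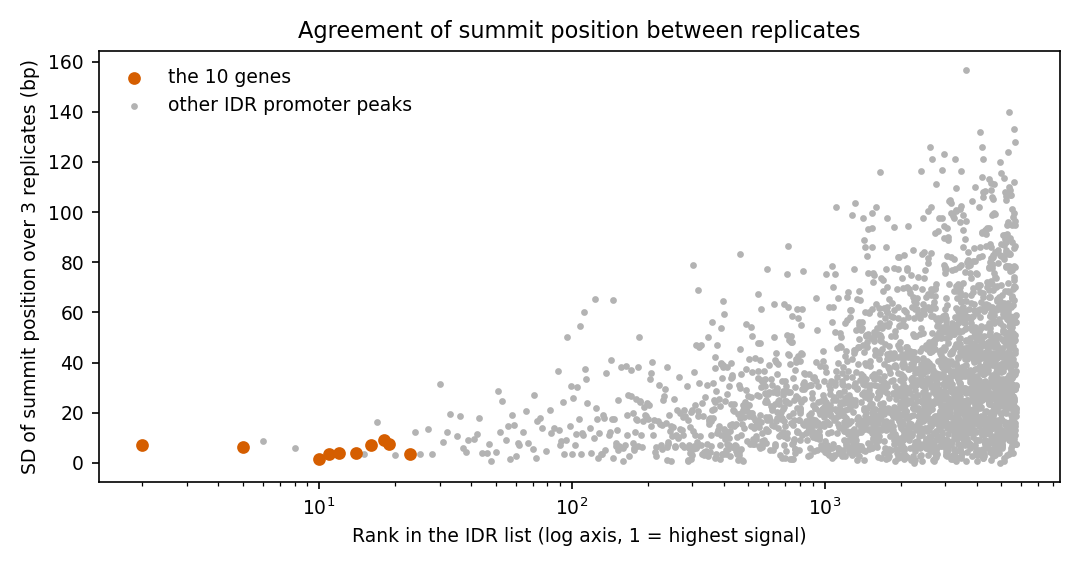
Standard deviation of the summit position over the 3 replicates in bp (vertical axis) against the rank in the IDR list (horizontal axis, log scale). The 10 genes (orange) lie between 1.53 and 9 bp, and the other promoter peaks with an SD (grey) have a quartile range of 14.7 to 44.99 bp when the 10 genes are counted with them.

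The position relative to the TSS was also alike. The IDR summit lay upstream of the nearest TSS at 8 genes and downstream at PNPase and CG11309, with a median of -113.5 bp for the 10 genes, -171 bp for the 90 other promoter peaks within the first 100 in signal and -87 bp for all 2986 others. These are medians of signed distances, in which upstream and downstream summits offset each other, so they do not measure closeness to the TSS. Over all promoter peaks the quartiles were -185 and 13 bp. From 80 to 170 bp upstream of the nearest TSS lay 7 summits, and 24.3% of all promoter peaks. The exceptions, Ugalt, PNPase and CG11309, have several TSSs, and each has another one that puts the summit in the same band, at -132, -93 and -110 bp. Counted over all TSSs, each of the 10 genes thus had a TSS of its own from 83 to 170 bp downstream of its summit. With a TSS of any gene allowed, 39 of the 90 other promoter peaks within the first 100 (43.3%) and 943 of the 2986 others (31.6%) had 1 from 80 to 170 bp downstream. Ugalt, CG18549, CG1635 and Fkbp14 fell within 2 bp of each other, at -132, -132, -133 and -131 bp. This band was drawn around the values of the 10 genes after they were seen, so their own count in it is a description of the band and not a measure of its strength.

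**Figure D4:**
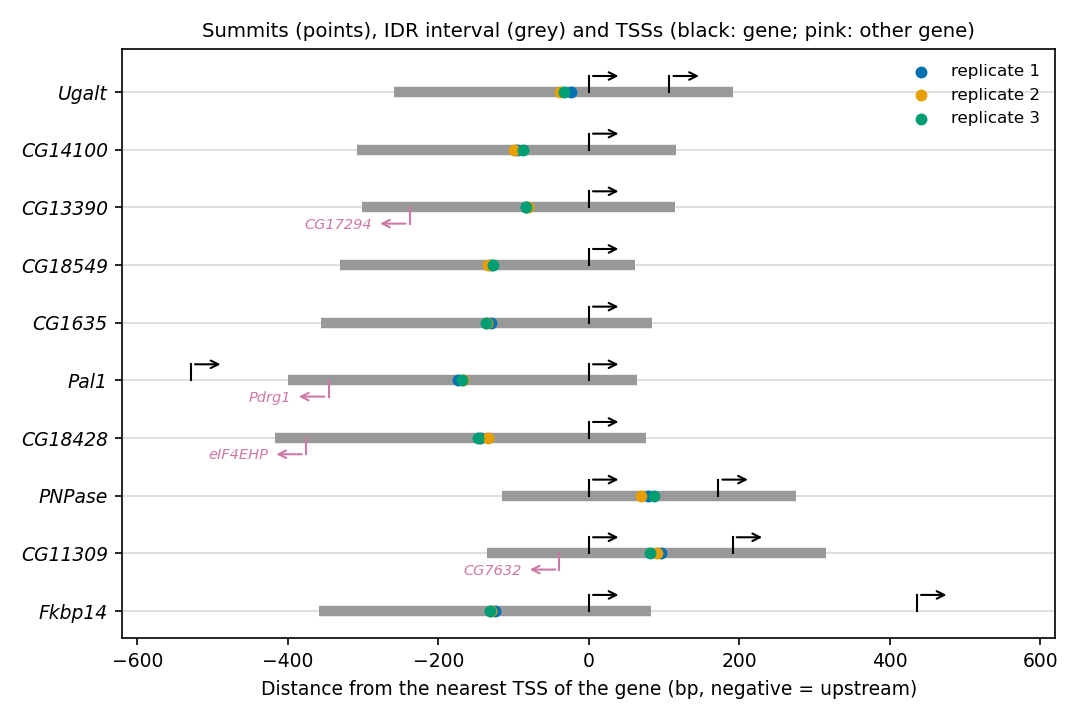
Summits of the 3 replicates (coloured points) and the IDR interval (grey bar) at each gene, as the distance in bp from the TSS of that gene nearest to the IDR summit. Black arrows are TSSs of the gene and pink arrows those of neighbours on the opposite strand, and the replicate summits span at most 18 bp at any gene.

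At 4 of the 10 genes the peak was shared with a neighbour on the opposite strand. Of all 2996 promoter peaks 1015 (33.9%) lay within 500 bp of TSSs of 2 or more genes, on either strand. The count of 4 is near that share. CG13390 and CG17294 start 238 bp apart, with the summit between them, 83 bp upstream of CG13390 and 155 bp upstream of CG17294. Pdrg1 starts 346 bp from the downstream TSS of Pal1, with the summit 176 and 170 bp upstream of them, close to the middle. The upstream TSS of Pal1 lies 359 bp before the summit, so Pdrg1 starts inside Pal1 and the genes overlap. CG18428 and eIF4EHP, which encodes a cap-binding repressor of translation, start 376 bp apart, with the summit 142 and 234 bp upstream. CG11309 and CG7632 start 39 bp apart, and here the summit lay outside the gap, inside CG11309 and 120 bp upstream of CG7632. In these 4 cases the deposited peaks cannot tell which gene the peak belongs to.

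A partner starting within 500 bp on the opposite strand and pointing away was present at 40% of the 10 genes. The share was 50.2% among the 3244 bound protein-coding genes and 29.6% among all protein-coding genes, so the 10 genes lie between these shares. The other 6 genes had the peak to themselves at this distance. Counted from TSS to TSS, Ugalt has eIF2Bbeta, a subunit gene of the translation initiation factor eIF2B, at 719 bp. In the same count PNPase has Gprk2, a G protein-coupled receptor kinase gene, at 505 bp, and Fkbp14 has CG46395 at 652 bp. These TSSs lay 694, 584 and 1240 bp from the summits of Ugalt, PNPase and Fkbp14. From the summit of CG14100 the nearest TSS of another gene, CG9330, was 4367 bp away, from that of CG18549 the nearest was vrs at 1511 bp on the same strand, and from that of CG1635 it was asRNA:CR45190 at 1871 bp.

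The peaks were of ordinary width. Fewer had a further summit close by than among all other promoter peaks, which held also for the 90 other peaks within the first 100. The intervals measured 393 to 494 bp, with a median of 441.5 bp against 440 bp for the other promoter peaks. A further summit of the pooled relaxed list lay within 1000 bp at CG18549, PNPase and Fkbp14, 30% of the 10 genes, against 41.1% of the 90 other peaks within the first 100 and 62.7% of all others. No further pooled summit lay within 500 bp of any of the 10, against 14.4% and 42.0% in the same 2 sets. The next IDR summit was farthest at Ugalt, 39390 bp, CG14100, 21720 bp, and CG11309, 17463 bp, and nearest at PNPase, 803 bp. Over the 10 genes the median distance to the next IDR summit was 3468 bp, and over the other promoter peaks it was 2950 bp.

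The bases around the summits were rich in A and T. Within 50 bp of the summit the share of G and C bases (GC) was 18.8% at CG18428, whose stretch is printed above in capitals, and 19.8% at Fkbp14. It was 21.8% at CG1635, 22.8% at CG13390 and at CG18549, 25.7% at CG11309, 29.7% at Pal1 and 30.7% at CG14100. PNPase with 33.7% and Ugalt with 34.7% were the least AT-rich. All 10 values were under the median of all promoter peaks, 35.6%.

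The median GC of the 10 genes was 24.3%, against 27.7% for the 90 other promoter peaks within the first 100 and 35.6% for all others. The dip was local. At 101 to 200 bp from the summit the medians were 41.8%, 44% and 40.8% for the same 3 sets. The core was below its own flanks at 9 of the 10 genes, most at Fkbp14, where the flanks had 55%. CG14100 was the exception, with 30.7% in the core and 30% in the flanks. The median difference between core and flank was -16.6 percentage points for the 10 genes, -15.5 for the 90 other strong promoter peaks, which thus showed the dip too, and -3.92 for all others. Base composition can shift read coverage in sequencing libraries, and its part in the signal was not tested.

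**Figure D5:**
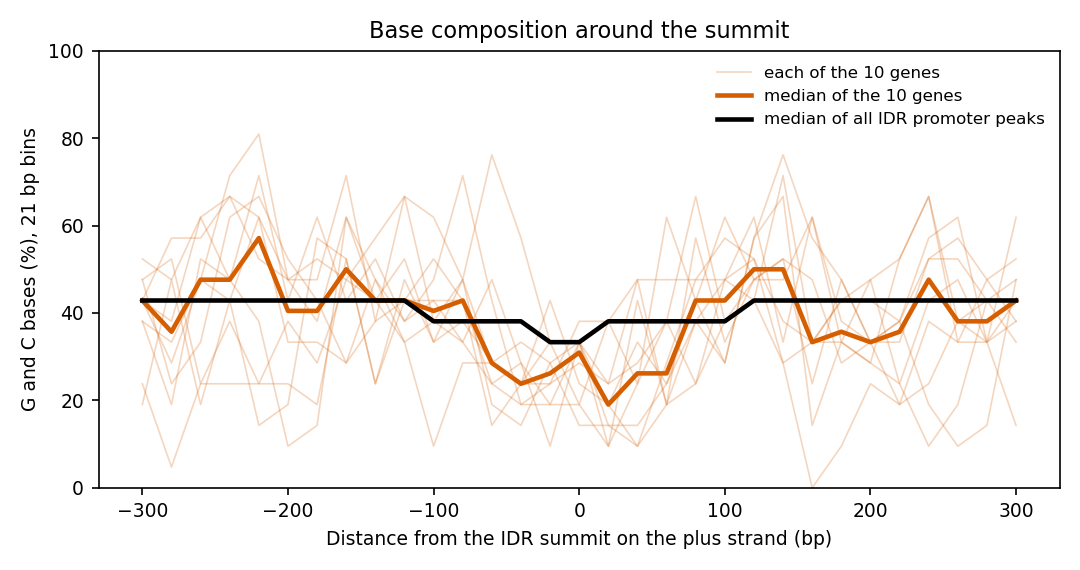
GC in bins of 21 bp (vertical axis, percent) against the distance from the IDR summit on the plus strand (horizontal axis, bp). Thin orange lines are the 10 genes, the thick orange line is their median, which falls to 19.0% in the bin 20 bp right of the summit, and the black line is the median of all IDR promoter peaks.

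Known promoter sequences were searched on both strands within 100 bp of the summits, and several had no match at this width. TATCGATA, the DNA replication element bound by DREF, was in 0 of the 10 windows, with 5.71% of all promoter peaks and 6.45% of windows centred on protein-coding TSSs. GGTCACAC, the core of the site of the promoter factor M1BP, was also in 0, with 3.34% and 5.68%, and 0 windows held CAGCTG (12.7% and 13.4%), CACGTG (2.50% and 2.80%), the Zelda site CAGGTA (3.81% and 4.26%), Ohler motif 6 (0.834% and 1.43%) or Ohler motif 7 (7.41% and 6.80%). An absent match says only that these letters are not in this window. Within 150 bp of the summit CAGCTG was in 4 of the 10 windows, with 19.3% of promoter peaks, and CAGGTA was in 1, with 5.94%, while the other 5 of these motifs were still in 0.

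TATAAA, the core of the TATA box, was in 5 windows, those of CG13390, CG18549, CG18428, CG11309 and Fkbp14, against 34.6% of promoter peaks and 26.9% of TSS windows. At CG18549 it lay 10 to 5 bp left of the summit and so more than 100 bp from the TSS. An Initiator match, TCAGTT or TCAGTC, was in 4 windows, those of CG18549, CG1635, Pal1 and PNPase, against 19.9% and 30.6%. At CG18549 this match lay 33 to 38 bp right of the summit, and so upstream of the TSS and not at it. CGATA, the core of the BEAF-32 site that is also part of TATCGATA, was in the windows of Ugalt and CG14100, against 33.9% and 37.1%. GAGAG, the GAGA factor site, was in that of CG18549 alone, against 25.8% and 24.99%. Within 150 bp CGATA was in 6 of the 10 windows, against 46.2% of promoter peaks, and it was within 100 bp of the nearest TSS at 4 genes, so its count, and whether it lies below or above that of all promoter peaks, rests on the window.

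Short AT-rich words were common to more of the genes. These were picked after the windows were seen, so their counts are descriptions. TTAAAA was in 9 windows, all but that of Pal1, with 45.2% of promoter peaks and 30.9% of TSS windows. CATTTA was in 8 windows, all but those of CG18549 and Fkbp14, with 21.2% and 16.4%. ATTTAA, which overlaps both, was in the same 8 windows, with 41.1% and 27.6%. AGTTAG was in 5 windows, with 6.88% and 7.15%.

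Inverted repeats flanked the summit at 3 genes, in a search for perfect arms of 9 bp or more within 150 bp of the summit, at least 40 bp apart, with under 70% A and T in the arm. At CG14100 the arms CATGGGCGTA and TACGCCCATG lay 80 to 89 bp left and 61 to 70 bp right of the summit on the plus strand. At CG1635 the arms ACAGTGGGCTC and GAGCCCACTGT lay 83 to 93 bp left and 87 to 97 bp right, so the summit was within a few bases of their middle. At PNPase the arms ATAGTTGAG and CTCAACTAT were less evenly placed, 140 to 148 bp left and 42 to 50 bp right. The search did not require an arm on either side of the summit. Over all promoter peaks 317 (10.6%) held a repeat anywhere in the window, as did 9.81% of windows of the same size 600 bp away. The search was added after the sequences were seen.

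The arm of CG14100 recurred at Ugalt. The word CTACGCCCATG was in the 150 bp on each side of the summits of both genes. It was in 10 promoter peaks in all (0.334%), those of both genes included, against 0.0416% of TSS windows. Other pairs of the 10 genes also shared words of 11 letters, among them TTTCGATAGTC in Ugalt and CG13390 and CATTTAAAACA in PNPase and CG11309. These held 4 and 2 G or C letters, against 7 in CTACGCCCATG. The last 7 letters of CTACGCCCATG, GCCCATG, were in 4 of the 10 genes, Ugalt, CG14100, CG13390 and CG11309, with 2.17% of promoter peaks and 1.93% of TSS windows. Read on the plus strand, the word lay right of the summit, at 93 bp in Ugalt and 67 bp in CG14100, and on the minus strand it lay left of the summit, at -86 bp in CG14100, -86 bp in CG13390 and -108 bp in CG11309. It thus had the same orientation relative to the summit at each of these 5 places, with the letters reading away from the summit. The places at 67 and -86 bp in CG14100 are the arms of its inverted repeat. Such arms on either side of a summit share their orientation relative to it by construction. The separate cases are therefore the 4 genes and not the 5 places. Ugalt and CG14100 gave the word, so its presence in them was set by that choice.

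The same orientation was the more frequent one at promoter peaks other than the 10 genes. GCCCATG lay right of the summit in 21 of 34 plus-strand places and left of it in 21 of 30 minus-strand places. The 7 letters CAGTGGG of the CG1635 arm had the other orientation, reading toward the summit. At the other promoter peaks they lay left of the summit in 43 of 55 plus-strand places and right of it in 63 of 82 minus-strand places. Both words were chosen from the sequences of the 10 genes, and no factor is assigned to either.

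The relatives of the 4 genes with known products were looked up in short lists, with 23.3% of all protein-coding genes bound for comparison. Of 8 nucleotide sugar transporter genes 4 were bound, Ugalt, senju (IDR rank 1147), meigo (rank 1362) and Efr (rank 3935), and frc, nac, sll and Papst2 were not. The relatives stood far below Ugalt in the same list. Of 6 FKBP family genes 3 were bound, Fkbp14, Fkbp12 (rank 3289) and Fkbp39 (rank 5614). Leaving Ugalt and Fkbp14 out, 3 of 7 transporter genes and 2 of 5 FKBP genes were bound. In the lists of replicates 1, 2 and 3, shortened to 5724 peaks each, 5, 3 and 6 transporter genes and 3, 2 and 2 FKBP genes had a promoter peak.

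Genes of peptide amidation and prohormone processing were bound in 4 of 5 cases. Besides Pal1 these were amon, a prohormone convertase gene, at rank 56, svr, a carboxypeptidase D gene, at rank 350, and Pal2, which encodes the other amidating lyase, at rank 1545. Phm, which encodes the enzyme of the first amidation step, had no IDR promoter peak, although the relaxed lists of replicates 2 and 3 held 1 at ranks 4922 and 20352 and that of replicate 1 held none. In the shortened lists of replicates 1, 2 and 3, 4, 5 and 4 of the 5 genes were bound. Of 17 genes of mitochondrial RNA and genome maintenance 6 were bound, PNPase, SLIRP2 (rank 159), SLIRP1 (rank 785), mTerf5 (rank 1817), mtSSB (rank 3491) and Suv3 (rank 4956), the gene of the helicase that works with polynucleotide phosphorylase in human mitochondria. That is 35.3% of the list, and 7, 6 and 6 genes were bound in replicates 1, 2 and 3. Leaving out the genes chosen for their peaks, 3 of 4 genes remain bound in the Pal1 list and 5 of 16 in the PNPase list. The lists are small and were drawn up with results of these data known, so no share is set apart from that of all genes.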

How the data were processed

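ChIP-seq of 3 biological replicates was available as peak lists. The authors deposited 1 relaxed list of 30000 peaks per replicate, 1 for the pooled replicates and the IDR set, on dm6 per the labels. Each list gives the deposited signal per peak and a deposited −log10 q-value, which stood at 4.08 throughout the IDR set and ranked nothing here. The deposited signal is the authors' own value and was used only within 1 list. The aligner, the peak caller and the IDR threshold are not given in the sources used here. TSSs came from Ensembl 115 (BDGP6.54) and sequence from RefSeq release 6, which share dm6 coordinates.

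Summits within 500 bp of a TSS were assigned to genes, and the one of highest signal was taken. GC, motifs and words were counted around IDR summits. The text names the 10 genes, genes sharing their peaks, genes of the promoter peaks ranked among them and the next 3 below, and bound members of 4 gene lists. Members and lists were chosen with earlier results of these data known. GC, 6-letter words, shared words, inverted repeats and the distance band were added after the data were seen. Scripts ran in Python 3.11.15, numpy 2.4.6, pandas 2.3.3 and matplotlib 3.10.9 and were tested on simulated data. Alternatives changed the TSS distance, the TSSs per gene, the peak set, the support rule, the windows and the replicates used.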

Additional observations from a re-analysis of the deposited data

How the results depend on the processing

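All 10 genes kept a promoter peak at 200 and 1000 bp, in the stronger part of the IDR list and among peaks supported by every replicate. With the most upstream TSS alone 9 had a peak, but only 8 their strong one, since that of Fkbp14 lies 588 bp and that of PNPase 791 bp from it, and PNPase counted through its peak of rank 4977. The median summit distance was then -83 bp in place of -113.5 bp, without Fkbp14 and with that other peak for PNPase. The number of genes with a divergent partner, 4 at 500 bp, was 1 at 200 bp and 7 at 1000 bp, and 3 with 1 TSS per gene. A further pooled summit lay near 3 genes within 1000 bp, 0 within 500 bp and 5 within 2000 bp. These counts moved with the distance that defines them. Leaving out each replicate in turn gave a median SD of summit position of 4.24 to 4.95 bp and a median rank of 12.8 to 16.2, against 5.02 bp and 14.8, and all 10 genes remained supported. The GC difference between the 10 genes and all promoter peaks, -11.4 percentage points, was -9.80 within 25 bp and -5.72 within 100 bp of the summit, both added after the data were seen. Repeats were found at 3 genes with arms of at least 8 bp, against 26.5% of all promoter peaks, and at 2 with arms of at least 10 bp, against 3.6%. Of 33 motif counts under other windows, 23 stayed within 1.5 times, 3 were lower and 7 higher. Most of the 23 were 0 in each setting. For a motif absent within 100 bp, the window of 50 bp could only give 0 again. The 23 therefore say little about how stable the counts above 0 are, and every CGATA count moved. No paired analysis was possible because there was 1 group. Depth is unknown, and 10 genes limit every share to steps of 10%.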
